A study of Mus musculus with 3 samples.

Results

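The collagen gene family was taken as every gene symbol in the deposited matrices made of Col, a number, the letter a and a number, which gave 44 of 31053 genes. Collagens are triple helices of 3 α chains, each chain the product of its own gene, that cells secrete into the extracellular matrix. Fibrillar collagens such as types I, III and V form the load-bearing fibres of bone and connective tissue, type IV forms the sheet of basement membranes beneath vessels, and other types decorate fibrils, build beaded filaments or span the cell membrane. In bone marrow the stromal cells that carry the leptin receptor surround the sinusoids, thin-walled veins that lack a continuous basement membrane, while arterioles have a complete one.

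The 3 libraries came from the niche cells of tibial marrow of C57Bl/6JCrl mice, 1 library per genotype, and all mice had received tamoxifen by gavage. WT was wild type, FLOX carried Vegfc flox/flox with no Cre named, and VC carried Cdh5CreERT2;Vegfc flox/flox, in which a tamoxifen-activated Cre under the endothelial Cdh5 promoter can remove the lymphatic growth factor gene Vegfc. VC and FLOX therefore share the floxed alleles, and all 3 groups share tamoxifen. The marrow was flushed and digested, vessels had been marked in vivo with an antibody against VE-cadherin (the product of Cdh5), red cells were removed, and antibodies to CD45, Ter119 and LepR were used before sorting. How many mice a library pools, their age and the sort gates do not appear in the sources used here. A genotype has a single library and therefore no replicate, so differences between genotypes are given as values with counting intervals and no test. Differences between cell groups were tested over the 3 libraries, which serve as replicates of a cell group. The p-values measure only the spread between these libraries, estimated over all cell groups together.

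The 4 cell groups compared were each set by UMIs (counts of unique molecular identifiers, a tag on each captured molecule) in cells with at least 500 genes and at most 10% mitochondrial UMIs. LepR stromal cells had at least 50 UMIs of the chemokine gene Cxcl12, at least 1 of Lepr and Adipoq together and at most 2 of Cdh5. Fibroblast-like cells had at least 3 UMIs of the proteoglycan gene Dcn, fewer than 50 of Cxcl12 and at most 2 of Cdh5. Sinusoidal cells had at least 1 UMI of Cdh5, fewer than 50 of Cxcl12 and at least 2 of the scavenger receptor gene Stab2. Arterial cells had at most 1 UMI of Stab2 and a UMI of at least 2 of Sox17, Sema3g, Fbln2 and Gja4. No collagen gene entered these rules. Of 15624 barcodes 12790 passed the filter, and 3 barcodes that met more than 1 rule were left out. There were 264 LepR stromal cells in WT, 1105 in FLOX and 466 in VC, then 2992, 3199 and 1643 sinusoidal cells and 60, 212 and 103 arterial cells. The fibroblast-like group had 2 WT, 8 FLOX and 6 VC cells, and 1 UMI there equals 51.7 CPM (UMIs per 1e6 UMIs of the cell group) in WT, 10.9 in FLOX and 10.5 in VC. Levels below are CPM of UMIs from transcript 3′ ends, in the order WT, FLOX, VC where no library is named. They are counts of molecules and not divided by gene length, and the capture of each transcript was not measured, so ratios between genes are compared only across cell groups and libraries.

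Markers outside the rules matched the names in part. Kitl, the stem cell factor gene, stood at 3095, 2482 and 2259 CPM in LepR stromal cells and 13.2, 16.8 and 12.99 CPM in sinusoidal cells. Lum, a small proteoglycan of collagen fibrils, stood at 1448, 825 and 1399.8 CPM in fibroblast-like cells and 118, 81.9 and 142 CPM in LepR stromal cells, while the fibroblast markers Pi16 and Clec3b had no UMI in the WT and VC fibroblast-like cells. Pdgfra, listed as a fibroblast gene, stood at 396, 312 and 294 CPM in LepR stromal cells and 259, 163 and 263 CPM in fibroblast-like cells, the larger value being in LepR stromal cells of each library. Lepr, a gene of the LepR stromal rule, stood at 2417, 1389 and 1546 CPM in LepR stromal cells. In fibroblast-like cells it stood at 569, 1009 and 716 CPM, so the presence of Lepr does not set these groups apart. Vcam1, listed for LepR stromal cells at 1725, 2239 and 1661 CPM, stood at 1432, 2800.1 and 2699 CPM in sinusoidal cells. Flt4 stood at 671, 713 and 805 CPM in sinusoidal cells, and the arterial gene Efnb2 at 440.1, 454 and 393 CPM in arterial and 44.2, 35.4 and 31.1 CPM in sinusoidal cells. The arterial genes Gja5 and Bmx had no UMI in the 60 WT arterial cells and stood at 43.9 and 30.6 CPM in FLOX and 36.9 and 23.8 CPM in VC, and 3 UMIs would be 4.09 CPM in WT. The FLOX and VC arterial cells also held RNA of genes typical of other cells. S100a8, a neutrophil gene, was at 128, 6604 and 10209 CPM, the stromal Adipoq at 0, 38.6 and 17.2 CPM and the pericyte gene Rgs5 at 5.45, 37.5 and 138 CPM. Vegfc itself stood at 246, 201 and 145 CPM in LepR stromal cells and at 1.56, 0.562 and 0.279 CPM (61, 17 and 6 UMIs) in sinusoidal cells, which checks no label, since the sources used here do not say whether the deleted part holds the counted 3′ end. The libraries shared 7 cell barcodes between WT and FLOX, 5 between WT and VC and 3 between FLOX and VC.

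Collagen transcripts took the largest part of the RNA in fibroblast-like cells and the smallest in sinusoidal cells in each of the 3 libraries. The 44 genes together made up 1.504%, 1.83% and 2.11% of UMIs in fibroblast-like cells, 0.529%, 0.549% and 0.517% in LepR stromal cells, 0.335%, 0.284% and 0.244% in arterial cells and 0.116%, 0.112% and 0.116% in sinusoidal cells. No range overlaps another. B lineage cells, used as a gauge of free RNA, had at least 3 UMIs of the B cell receptor component gene Cd79a. Their rule also asked for no UMI of Cdh5 or Stab2, fewer than 50 of Cxcl12 and fewer than 3 of Dcn. They held 0.00537%, 0.00242% and 0.00313%. Since barcodes with any Cdh5 or Stab2 RNA were left out, this gauge may read low. The kinds of collagen differed as well. Fibrillar collagens gave 73.9%, 72.3% and 79.3% of collagen UMIs in fibroblast-like cells and 52.8%, 49.9% and 54.8% in LepR stromal cells, and 1.68%, 1.92% and 2.17% in sinusoidal cells. Type IV chains, the basement membrane collagens, gave 93.6%, 80.5% and 79.2% in arterial and 73.6%, 72.1% and 72.8% in sinusoidal cells. Of the 44 genes 42 had a UMI in a filtered cell, Col9a1 and Col24a1 having none. At least 10 CPM on average in at least 1 cell group was reached by 25 genes, of which 19 were highest in fibroblast-like cells, 4 in arterial cells (Col4a1, Col4a2, Col15a1 and Col18a1) and 2 in LepR stromal cells (Col5a3 and Col27a1). These counts are a description and support no ranking of the groups: with 2 WT fibroblast-like cells 1 UMI is 51.7 CPM, enough to pass, and Col2a1, Col4a4, Col13a1, Col8a2 and Col14a1 passed through the fibroblast-like group alone, on 2, 5, 9, 19 and 59 UMIs. The other 19 reached at most 7.38 CPM, the mean of Col25a1 in sinusoidal cells.

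**Figure D1:**
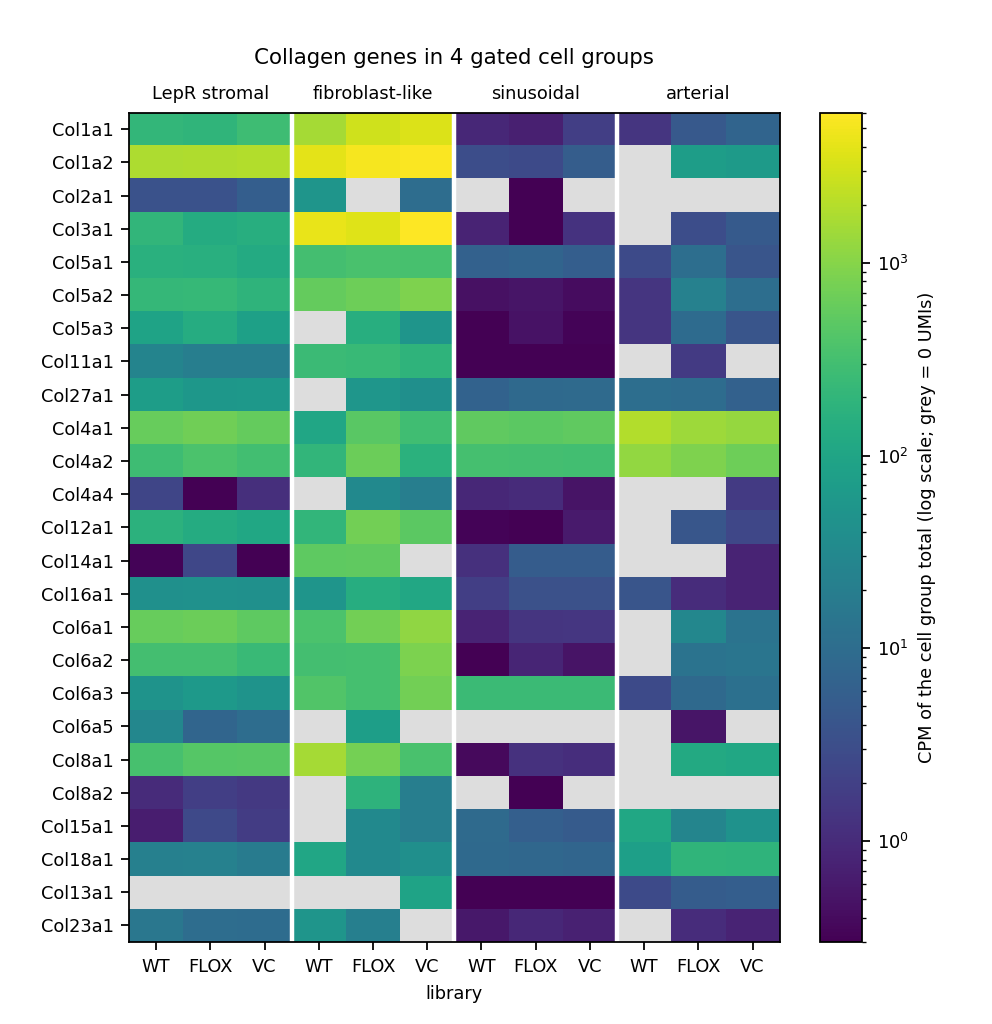
CPM of the 25 collagen genes at 10 CPM or more in at least 1 cell group (rows, in the order of their structural classes), by cell group and library (columns); colour is CPM on a log scale, grey marks 0 UMIs, and values under 0.3 CPM share the darkest colour. Most fibrillar rows are bright in the fibroblast-like and LepR stromal columns, Col4a1 and Col4a2 in all columns, and Col6a3 in sinusoidal columns where Col6a1 and Col6a2 are dark.

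For the tests, UMIs were summed per library and cell group and compared with edgeR's quasi-likelihood test, with the library as a term and Benjamini-Hochberg adjustment over 11678 genes. Of the 44 collagen genes 24 passed the filter on low counts. Against sinusoidal cells, LepR stromal cells were higher in 17 and lower in 4, where 30.0% and 29.3% of all genes tested were called, and fibroblast-like cells were higher in 18 and lower in 0, where 8.15% and 12.6% were called. Arterial cells against sinusoidal cells were higher in 13 and lower in 2 (14.3% and 12.1% of all genes). LepR stromal cells against fibroblast-like cells were higher in 0 and lower in 9 (3.04% and 1.96%). A gene could pass the filter through a single cell group, so these and later counts called higher in that group are partly set by the filter. The spread of a gene was estimated over all 12 sums together. The p-values therefore do not measure separately how much the few fibroblast-like cells vary. A difference below is a log2 fold change with its standard error.

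Type VI collagen forms beaded microfilaments from the α1, α2 and α3 chains that Col6a1, Col6a2 and Col6a3 encode. The 3 genes are shown first by sequence and then by level, because their chains build 1 protein and yet their transcripts were found at different ratios in different cells. Col6a1 (chr10:76708792-76726168) and Col6a2 (chr10:76595762-76623630) lie on the minus strand of chromosome 10, 85161 bases apart, and Col6a3 (chr1:90765923-90843971, minus strand) lies on chromosome 1, in GRCm38 by GENCODE vM21. No other gene of the matrices shares an exon base with any of these 3. The bases upstream of their starts, from RefSeq (GRCm38.p6) and written 5′ to 3′ on the minus strand, are given for chr10:76726169-76726294, chr10:76623631-76623880 and chr1:90843972-90844221, and capitals mark the letters AGGAAG or GGGCGG on either strand. For Col6a1 only the 126 bases outside the GENCODE gene are shown, and for Col6a2 the farther upstream of its 2 RefSeq windows.
Col6a1: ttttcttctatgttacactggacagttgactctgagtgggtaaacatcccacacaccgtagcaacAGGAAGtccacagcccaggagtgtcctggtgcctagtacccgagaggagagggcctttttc
Col6a2: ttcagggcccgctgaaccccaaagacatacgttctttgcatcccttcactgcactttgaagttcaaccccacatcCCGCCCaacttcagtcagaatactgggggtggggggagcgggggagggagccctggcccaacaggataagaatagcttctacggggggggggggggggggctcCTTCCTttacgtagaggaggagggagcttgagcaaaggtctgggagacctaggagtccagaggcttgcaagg
Col6a3: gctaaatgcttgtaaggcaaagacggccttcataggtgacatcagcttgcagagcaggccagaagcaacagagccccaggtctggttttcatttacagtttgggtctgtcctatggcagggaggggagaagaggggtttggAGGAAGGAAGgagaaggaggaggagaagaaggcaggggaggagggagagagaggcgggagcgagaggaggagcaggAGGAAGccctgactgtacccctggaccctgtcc

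The 4 motifs searched on both strands were the TATA box TATAAA, the CCAAT box, the GC box GGGCGG and the letters AGGAAG, which hold the core of the ETS factor site. None of the 3 windows of 250 bases held a TATA or CCAAT box, which 12.4% and 33.8% of all windows did. The letters AGGAAG occurred 3 times in the Col6a3 window (2 of them overlapping), 2 times in that of Col6a1 and 1 time in that of Col6a2. Of all 32851 upstream windows of that length, 29.5% held it at least 1 time. The Col6a2 window held GGGCGG 1 time, as 32.7% of all windows did at least 1 time.

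In sinusoidal cells Col6a3 was the third collagen gene by level while the genes of its partner chains were near 1 CPM. Col6a3 stood at 254 CPM (WT), 255 (FLOX) and 256 (VC), and was seen in 82.8%, 76.96% and 83.3% of cells. Col6a1 stood at 0.818, 1.39 and 1.44 CPM and Col6a2 at 0.307, 0.827 and 0.512 CPM there. The B lineage cells held 3.41, 2.14 and 1.29 CPM of Col6a3 and 1.14, 0.238 and 0.429 CPM of Col6a1. The sinusoidal level of Col6a3 was far above this gauge in all 3 libraries, and that of Col6a1 was below it in WT and above it in FLOX and VC. The gauge holds no barcode with Cdh5 or Stab2 RNA and may read low. With every cell thinned to 2000 UMIs, Col6a3 was detected in 36.7%, 38.1% and 38.2% of sinusoidal and 0.692%, 0.337% and 0% of B lineage cells. Shallower cells were left out, 18, 29 and 7 sinusoidal and 8, 6 and 0 B lineage cells. Median depth was 11107, 7780 and 10745 UMIs in sinusoidal and 4960, 11573 and 5850 in B lineage cells.

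LepR stromal cells showed the reverse balance. Col6a1 stood at 609, 645 and 512 CPM, Col6a2 at 311, 317 and 243 CPM and Col6a3 at 49.3, 61.8 and 48.7 CPM. The ratio of Col6a3 to Col6a1 UMIs was 311, 184 and 178 in sinusoidal cells against 0.08104, 0.0958 and 0.09504 in LepR stromal cells, whereas the ratio of Col6a1 to Col6a2 in LepR stromal cells was 1.95, 2.04 and 2.11. Against sinusoidal cells, LepR stromal cells were lower in Col6a3, with a log2 fold change of -2.26 ± 0.21 (SE, adjusted p = 6.08e-08), and higher in Col6a1 by 8.99 ± 0.47 (SE, adjusted p = 5.10e-11) and in Col6a2 by 9.06 ± 0.43 (SE, adjusted p = 1.71e-11), in 3 of 3 libraries each. In fibroblast-like cells all 3 genes were high, Col6a1 at 362, 738 and 1158 CPM, Col6a2 at 310.2, 326 and 863 CPM and Col6a3 at 414, 326 and 716 CPM. LepR stromal cells were below fibroblast-like cells in Col6a3, at -2.90 ± 0.30 (SE, adjusted p = 2.42e-05), while Col6a1 did not pass, at -0.09 ± 0.40 (SE, adjusted p = 0.94).

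Arterial cells held little Col6a3, 2.72, 8.98 and 11.5 CPM, and were lower than sinusoidal cells, at -5.01 ± 0.31 (SE, adjusted p = 5.66e-09), in 3 of 3 libraries. Within sinusoidal cells the level of Col6a3 went with that of Stab2, a gene of the sinusoidal rule, at Spearman's rho of 0.32, 0.27 and 0.30 over the cells of WT, FLOX and VC, and not with depth, at 0.00, -0.01 and -0.02. Col6a5, a further α chain of type VI, stood at 28.9, 7.69 and 10.2 CPM in LepR stromal cells and had no UMI in sinusoidal cells. Its 7 UMIs in fibroblast-like cells all came from FLOX, from 12.5% of those cells. Col6a4 and Col6a6 reached at most 2.01 CPM.

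**Figure D2:**
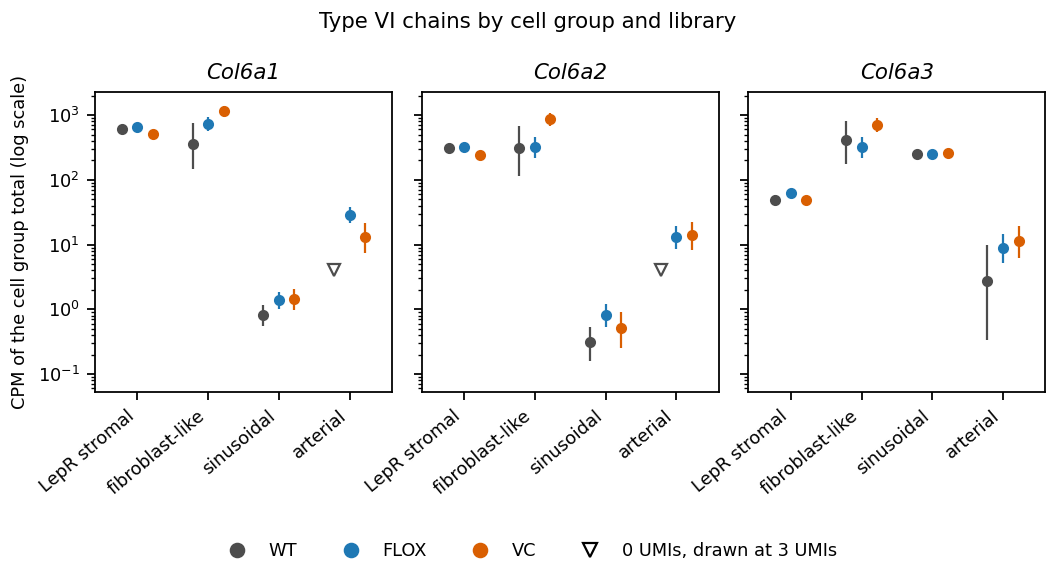
CPM (log axis) of the 3 type VI genes in each cell group, 1 point per library with its 95% counting interval; an open triangle is a library with 0 UMIs, drawn at 3 UMIs. Col6a3 lies near 255 CPM in sinusoidal cells where Col6a1 and Col6a2 lie under 2 CPM, and Col6a1 and Col6a2 exceed Col6a3 in LepR stromal cells.

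Fibrillar collagens were led by Col1a2 in LepR stromal cells and by Col1a2, Col3a1 and Col1a1 in fibroblast-like cells. Col1a1 and Col1a2 encode the α1 and α2 chains of type I collagen, the main protein of bone, and Col3a1 the chain of type III collagen of reticular fibres. Col1a2 stood at 1795 CPM (WT), 1815 (FLOX) and 1928 (VC) in LepR stromal cells and 3929 CPM (WT), 5209.5 (FLOX) and 5620.3 (VC) in fibroblast-like cells. Col1a1 stood at 213 CPM (WT), 192 (FLOX) and 272 (VC) in LepR stromal cells and 1603 CPM (WT), 2898 (FLOX) and 3589 (VC) in fibroblast-like cells. Col3a1 stood at 205, 132 and 148 CPM and 4395, 3679 and 5957 CPM in these groups. For each gene the fibroblast-like libraries all lie above the LepR stromal ones, with no overlap.

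The gap was not alike for the 3 genes. LepR stromal cells were lower than fibroblast-like cells in Col1a1, at -3.23 ± 0.28 (SE, adjusted p = 5.13e-06), and in Col3a1, at -4.45 ± 0.35 (SE, adjusted p = 2.41e-06), and Col1a2 did not pass, at -0.94 ± 0.47 (SE, adjusted p = 0.301). The UMI ratio of Col1a2 to Col1a1 was accordingly 8.41, 9.45 and 7.09 in LepR stromal cells and 2.45, 1.798 and 1.57 in fibroblast-like cells. The ratio of Col3a1 to Col1a1 was 0.962, 0.686 and 0.543 in LepR stromal and 2.74, 1.27 and 1.66 in fibroblast-like cells. Both ratios differ between the 2 stromal groups in the same direction in each library, and a difference of the ratios was not tested.

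Type I RNA was also spread differently over cells. Col1a2 was seen in 100.0%, 99.9% and 99.6% of LepR stromal cells, and the richest 10% of the cells held 24.4%, 22.04% and 26.3% of its UMIs. Col1a1 was seen in 57.95%, 58.6% and 60.1% of them, and the richest 10% held 54.1%, 52.3% and 64.0%. For Col3a1 these shares were 59.5%, 62.3% and 72.2%, with a UMI in 49.6%, 43.1% and 41.2% of cells. A minority of LepR stromal cells thus held most of the Col1a1 and Col3a1 UMIs in each library, and Col1a2 was spread over nearly all cells. Over cells, rho between Col1a1 and Lum was 0.36, 0.26 and 0.36, between Col1a1 and Col6a3 0.39, 0.39 and 0.33 and between Col1a1 and Cxcl12 -0.17, -0.01 and -0.11. In the VC library 1 LepR stromal cell with 79418 UMIs held 309 of the 1894 Col1a1 UMIs, 414 Col1a2 UMIs and no Col3a1, along with 128 UMIs of the osteoblast gene Bglap.

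Type V and XI chains join type I fibrils and regulate their diameter. Col5a1 stood at 162, 153 and 127 CPM in LepR stromal and 310.2, 347 and 337 CPM in fibroblast-like cells, and Col5a2 at 216, 224 and 191 CPM and 569, 673 and 895 CPM. Both were lower in LepR stromal cells, Col5a1 at -0.92 ± 0.24 (SE, adjusted p = 0.0384) and Col5a2 at -1.49 ± 0.29 (SE, adjusted p = 0.00604). Without FLOX or without VC the call of Col5a1 was lost, and without VC that of Col5a2, at log2 fold changes of -0.94, -0.79 and -1.15. The ratio of Col5a1 to Col5a2 UMIs was 0.7504, 0.681 and 0.664 in LepR stromal cells, and sinusoidal cells held almost only Col5a1, 6.57, 7.18 and 5.77 CPM against 0.4604, 0.529 and 0.419 CPM of Col5a2, a ratio of 14.3 in WT and 13.6 in FLOX. Col5a3 was the exception, at 94.96, 138 and 84.3 CPM in LepR stromal and 0, 152 and 52.6 CPM in fibroblast-like cells, a difference of 0.60 ± 0.40 (SE, adjusted p = 0.451) that did not pass. Col11a1, also a cartilage collagen, stood at 26.5, 20.9 and 20.96 CPM and 259, 239 and 189 CPM, lower in LepR stromal cells at -3.02 ± 0.37 (SE, adjusted p = 0.000103). Col2a1, the main collagen of cartilage, was low in both, at 3.69, 3.66 and 5.89 CPM in LepR stromal cells and 2 UMIs in all fibroblast-like cells. Col27a1, a fibrillar collagen of cartilage, stood at 74.5, 56.1 and 57.99 CPM in LepR stromal and 6.83, 8.93 and 9.03 CPM in sinusoidal cells. In the comparison with sinusoidal cells all 9 fibrillar genes that passed the filter were higher in LepR stromal cells, beside 30.0% of all genes. Log2 fold changes ran from 2.91 ± 0.18 for Col27a1 to 9.01 ± 0.64 for Col1a2, with a median of 7.67 against -0.00 for all genes tested. This count and median are partly set by the filter. Col2a1, Col11a1, Col5a3 and Col5a2, with 1, 14, 28 and 43 sinusoidal UMIs, passed it through other cell groups.

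Of the 3 tested fibril-associated collagens with interrupted helices, 2 were lower in LepR stromal than fibroblast-like cells, beside 1.96% of all genes tested. Col12a1 coats type I fibrils and stood at 174, 132 and 109.5 CPM in LepR stromal and 207, 727 and 495 CPM in fibroblast-like cells, a difference of -1.76 ± 0.35 (SE, adjusted p = 0.00705) that no longer passed without FLOX, at -1.34. Col14a1, which also binds fibrils, was at 517 CPM (WT), 532 (FLOX) and 0 (VC) in fibroblast-like cells, 0.336, 2.46 and 0.144 CPM in LepR stromal cells and 1.18, 5.46 and 5.26 CPM in sinusoidal cells. VC was thus the library without it, and WT and FLOX lay close together. The Col14a1 difference between LepR stromal and fibroblast-like cells was -7.63 ± 0.94 (SE, adjusted p = 0.000113), with LepR stromal cells lower in 2 of 3 libraries. Its 59 fibroblast-like UMIs came from 5 of 16 cells, 1 in WT and 4 in FLOX. Of these UMIs 27 came from 1 FLOX cell that also held 13 UMIs of Cd79a, a B cell gene, and the highest collagen share of the 16 cells, 3.68%. No doublet caller was run, and the part of a B cell in that barcode was not tested. Col16a1 stood at 43.3, 44.3 and 43.1 CPM in LepR stromal and 51.7, 141 and 116 CPM in fibroblast-like cells, a difference of -1.12 ± 0.41 (SE, adjusted p = 0.149) that did not pass. Col8a1, a short-chain network collagen, stood at 334, 442 and 449 CPM in LepR stromal and 1603, 759.7 and 347 CPM in fibroblast-like cells, with ranges that overlap and a difference of -0.35 ± 0.56 (SE, adjusted p = 0.8). Its partner Col8a2 stood at 1.01, 1.87 and 1.58 CPM in LepR stromal cells, so that Col8a1 had 237 UMIs in FLOX and 285 in VC for each of Col8a2. In FLOX fibroblast-like cells this ratio was 4.12 (95% interval 2.40 to 7.46). The WT fibroblast-like cells held 31 Col8a1 and 0 Col8a2 UMIs and those of VC 33 and 2, too few for a ratio. Among the membrane-spanning collagens, Col23a1 was higher in LepR stromal than sinusoidal cells, at 15.4, 10.3 and 9.76 CPM against 0.563, 0.893 and 0.745 CPM, by 3.97 ± 0.36 (SE, adjusted p = 5.11e-08). Col13a1, another of this class, had no UMI in LepR stromal cells and 9 in fibroblast-like cells, all in VC, where it was called on those UMIs alone.

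The fibroblast-like group rests on 16 cells that were not alike. Their collagen share ran from 0.919% to 2.18% in the 2 WT cells, from 0.415% to 3.68% in the 8 FLOX cells and from 0.415% to 3.11% in the 6 VC cells. Col1a2 was present in 16 of 16 cells, Col1a1, Col3a1 and Col6a1 in 15, Col6a3 in 14, Col11a1 in 13, Col8a1 in 12, Col12a1 in 11 and Col14a1 in 5. Depth ran from 1206 to 37365 UMIs, and the cells in which a gene was missing include the shallowest. Markers of skeletal cells were held by few of them: 1 FLOX cell carried 111 of the 141 UMIs of Comp, a cartilage and tendon gene, and 1 VC cell carried 50 of the 59 UMIs of Alpl, an osteoblast gene. That VC cell also carried 53 of the 106 Col6a3 UMIs and 81 of the 185 Col6a1 UMIs. The WT cell with 29 Col8a1 UMIs carried 41 UMIs of Cxcl12, close to the limit of 50. With a stricter rule of fewer than 10 Cxcl12 UMIs and no Lepr or Adipoq, 2 cells were left, and the differences of Col1a1 and Col5a2 between LepR stromal and fibroblast-like cells turned to 2.44 and 2.40 without a call.

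**Figure D3:**
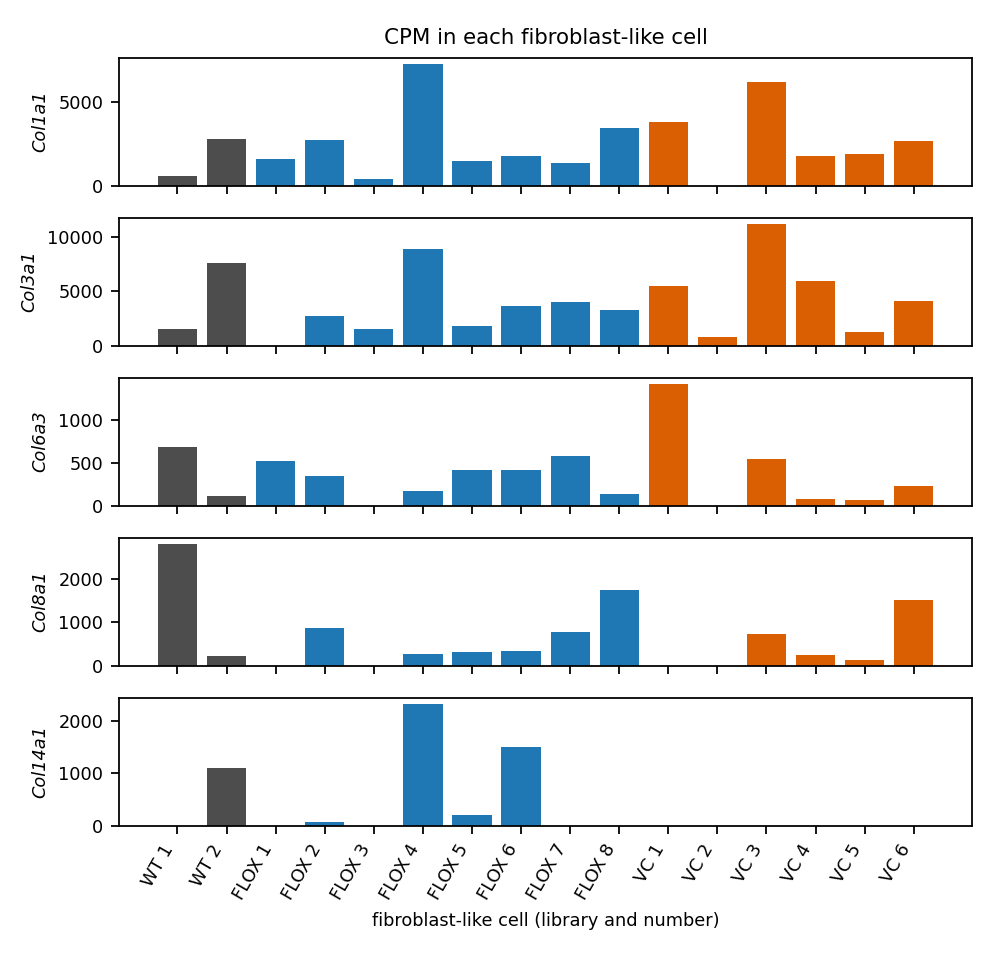
CPM of 5 collagen genes (vertical axes) in each of the 16 fibroblast-like cells, relative to the UMIs of that cell (bars start at 0; grey WT, blue FLOX, orange VC; each panel has its own scale). Col1a1 and Col3a1 are present in 15 cells each, Col14a1 in 5 and in none of the 6 VC cells, and Col6a3 is highest in 1 VC cell.

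The limit of 50 Cxcl12 UMIs sets these 2 stromal groups apart, so the cells on either side of it are described without a test. Cells with 25 to 49 Cxcl12 UMIs numbered 12, 13 and 8, and their collagen share was 0.927%, 1.24% and 2.26%. Cells with 50 to 99 numbered 18, 34 and 8, with 0.554%, 0.579% and 1.21%. The share was higher below the limit in each library. Col4a1 went the other way, at 222, 394 and 351 CPM below and 569, 814 and 440.3 CPM above the limit. Median depth was 2290, 2704 and 1438 UMIs below and 3572.5, 4054 and 4222.5 UMIs above it.

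Col4a1 and Col4a2, whose products form the common α1α1α2 network of type IV collagen, were the leading collagen genes of both endothelial groups. The pair is arranged head to head on chromosome 8, Col4a1 on the minus strand (chr8:11198423-11312826) and Col4a2 on the plus strand (chr8:11312805-11449287), and their annotated starts overlap by 22 bases (GRCm38, GENCODE vM21). The UMIs were counted at the far 3′ ends.

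Col4a1 stood at 1946 CPM (WT), 1403 (FLOX) and 1251 (VC) in arterial cells and 537 CPM (WT), 500.5 (FLOX) and 539.5 (VC) in sinusoidal cells. Col4a2 stood at 1184, 879 and 677 CPM in arterial and 318, 307 and 300.2 CPM in sinusoidal cells. All arterial values lie above all sinusoidal ones, and the WT arterial cells are the highest for both genes. Arterial cells were higher by a log2 fold change of 1.47 ± 0.28 (SE, adjusted p = 0.000885) for Col4a1 and 1.47 ± 0.28 (SE, adjusted p = 0.0009) for Col4a2, in 3 of 3 libraries. In LepR stromal cells neither gene was called against sinusoidal cells, Col4a1 standing at 609.7, 691 and 582 CPM with a difference of 0.25 ± 0.28 (SE, adjusted p = 0.462) and Col4a2 at 282, 357 and 295 CPM with 0.00 ± 0.28 (SE, adjusted p = 0.997). These p-values miss the threshold and do not show equality.

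Col4a1 UMIs per Col4a2 UMI numbered 1.64, 1.596 and 1.85 in arterial cells, 1.69, 1.63 and 1.797 in sinusoidal cells and 2.16, 1.94 and 1.98 in LepR stromal cells. The LepR stromal ratio exceeds the sinusoidal one in each library. Fibroblast-like cells of FLOX, with 44 Col4a1 and 59 Col4a2 UMIs, stood lower at 0.746 (95% interval 0.493 to 1.12), and those of VC gave 27 and 16 UMIs. Over cells the pair varied together, with rho of 0.63, 0.78 and 0.71 in arterial, 0.53, 0.44 and 0.50 in sinusoidal and 0.23, 0.42 and 0.38 in LepR stromal cells of WT, FLOX and VC, a description that shares depth and library. Of the other type IV genes Col4a3, Col4a5 and Col4a6 stayed under 10 CPM on average in every group, and the mean of Col4a4 passed 10 CPM only through 5 UMIs in fibroblast-like cells.

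Multiplexins, basement membrane collagens whose ends can be cleaved to fragments such as endostatin from Col18a1, were higher in arterial than sinusoidal cells. Col18a1 (chr10:77052178-77166548, minus strand) stood at 79.02 CPM (WT), 199 (FLOX) and 190.1 (VC) in arterial and 9.003, 8.07 and 7.68 CPM in sinusoidal cells, a difference of 4.17 ± 0.23 (SE, adjusted p = 1.74e-09). Col15a1 (chr4:47208161-47313167, plus strand) stood at 108 CPM (WT), 26.9 (FLOX) and 46.7 (VC) in arterial and 9.36, 5.99 and 5.21 CPM in sinusoidal cells, a difference of 2.93 ± 0.32 (SE, adjusted p = 3.35e-06). LepR stromal cells held 22.5, 23.5 and 18.8 CPM of Col18a1 and 0.671, 2.69 and 1.72 CPM of Col15a1. Both were higher in arterial than sinusoidal cells in 3 of 3 libraries without overlap, but their order between libraries was opposite, WT being the highest for Col15a1 and the lowest for Col18a1. Col15a1 shares exon bases with the gene Gm12426 of the other strand, and whether the counting used strand does not appear in the sources used here. Col13a1, a membrane-spanning collagen, was near 0 in sinusoidal cells (2, 4 and 1 UMIs) and at 2.72, 5.28 and 5.74 CPM in arterial cells on 2, 10 and 7 UMIs, a difference of 5.49 ± 0.95 (SE, adjusted p = 0.000553). Col25a1, another membrane-spanning collagen, was higher in sinusoidal cells, at 8.98, 7.24 and 5.91 CPM against 0, 1.06 and 0.819 CPM in arterial cells, a difference of -3.27 ± 0.58 (SE, adjusted p = 0.000672).

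Some calls in the arterial group rest on barcodes that carry RNA of other cells. With barcodes that hold a UMI of Adipoq or at least 10 of S100a8 left out of both endothelial groups, 60, 195 and 92 arterial cells remained. Col1a2, at 0, 73.4 and 67.2 CPM among all arterial cells, then stood at 0, 2.598 and 10.3 CPM, and Col6a1 fell from 0, 29.1 and 13.1 CPM to 0, 3.25 and 3.08 CPM. The calls of Col1a2, Col6a1 and Col6a2 as higher in arterial cells were lost, and those of Col1a1 and Col12a1 turned in sign and were lost, at -0.36 and -0.13. Col4a1 at 1946, 1530.0 and 1359 CPM, Col18a1 at 79.02, 216 and 223 CPM, Col15a1 at 108, 26.6 and 45.2 CPM and Col8a1 at 0, 121 and 125 CPM stayed above their sinusoidal levels in the same libraries as before.

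**Figure D4:**
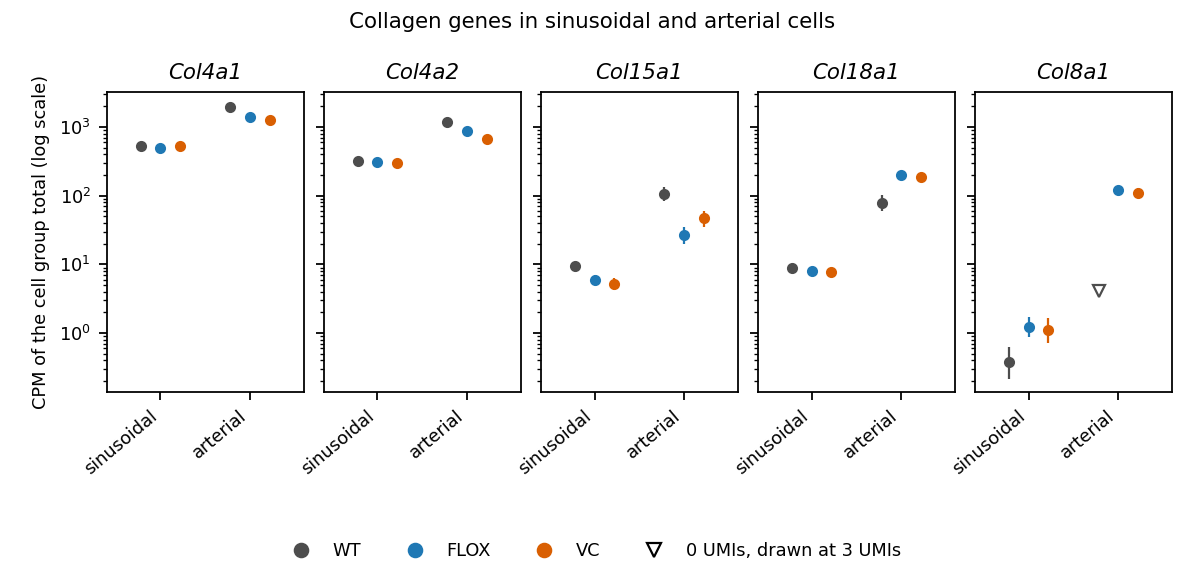
CPM (log axis) of 5 collagen genes in sinusoidal and arterial cells, 1 point per library with its 95% counting interval; the open triangle is the WT arterial group with 0 Col8a1 UMIs, drawn at 3 UMIs. Col4a1, Col4a2, Col15a1 and Col18a1 are higher in arterial cells of all 3 libraries, and Col8a1 in those of FLOX and VC.

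Col8a1 split the arterial cells. It was listed with 0 UMIs in the 60 WT arterial cells, where 3 UMIs would be 4.09 CPM, and stood at 123 CPM in FLOX and 111 CPM in VC, at least 29.99-fold and at least 27.1-fold above that floor. Sinusoidal cells held 0.384, 1.22 and 1.12 CPM. The fitted difference was 6.37 ± 0.62 (SE, adjusted p = 1.05e-06), higher in 2 of 3 libraries, and it depends on how the WT count of 0 is handled. A UMI of Col8a1 was found in 76 of 212 FLOX and 41 of 103 VC arterial cells.

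The arterial cells with and without a Col8a1 UMI are set side by side as a description, since Col8a1 chose them. In FLOX, cells with Col8a1 held 836 CPM of Col4a1, 299 CPM of Col18a1, 11.1 CPM of Col15a1 and 89.7 CPM of Gja5, against 1830.5, 124, 38.9 and 9.27 CPM in cells without. In VC these values were 929.6, 316, 38.0 and 79.96 CPM with Col8a1 and 1475, 103, 52.8 and 6.94 CPM without. Alpl, an enzyme gene also found in arterial endothelium, was at 116 and 126 CPM with Col8a1 and at 20.4 and 2.78 CPM without, in FLOX and VC. Cells with Col8a1 were thus lower in Col4a1 and Col15a1 and higher in Col18a1, Gja5 and Alpl in both libraries. The arterial gene Hey1 was also higher, at 111 against 29.7 CPM in FLOX and 122 against 16.7 CPM in VC. The arterial gene Efnb2 was not higher in both, at 442 against 463 CPM in FLOX and 450 against 354 CPM in VC. The endothelial gene Cdh5 was lower with Col8a1, at 845 against 1250 CPM in FLOX and 1014 against 1186 CPM in VC. Cells with Col8a1 also held more Col1a2, at 131 against 29.7 CPM in FLOX and 158 against 4.17 CPM in VC, and more UMIs, with medians of 8617.5 against 6138.5 and 10301 against 9209.5. LepR stromal cells express Col8a1 and Col1a2 too, and the part of their RNA and of depth in this split was not tested. The WT arterial cells, with Col4a1 at 1946, Col18a1 at 79.0, Col15a1 at 108 and Gja5 at 0 CPM, were in these 4 genes nearer to the cells without Col8a1. Genotype, mouse and cell capture cannot be told apart in these libraries.

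The genes that handle collagen were taken from lists of textbook functions. Of 17 genes that modify and fold collagen chains, 16 were tested. In LepR stromal against sinusoidal cells 11 were higher and 3 lower, beside 30.0% and 29.3% of all genes. Higher were Plod2, a lysyl hydroxylase, at 63.8, 66.7 and 63.7 CPM against 14.9, 14.7 and 15.1 CPM and Serpinh1, the collagen chaperone, at 479, 680.1 and 554 CPM against 195, 218 and 238 CPM. Plod1, another lysyl hydroxylase, was lower in LepR stromal cells, at 18.8, 26.1 and 23.97 CPM against 145, 158 and 179 CPM, a difference of -2.78 ± 0.19 (SE, adjusted p = 1.92e-09). The median difference of the list was 1.01 against -0.00 for all genes tested. Of 12 genes that process and crosslink collagen 8 were tested. All 8 were higher in LepR stromal cells, beside 30.0% of all genes, with a median difference of 6.36. Among them Lox, the crosslinking enzyme, stood at 300.3, 205 and 236 CPM against 0.486, 0.397 and 0.1396 CPM. Adamts2, which removes N-propeptides, stood at 389, 393 and 391 CPM against 0.486, 1.22 and 0.512 CPM. Loxl2 was the nearest to equal, at 122, 117 and 103 CPM against 89.8, 83.04 and 86.3 CPM, a difference of 0.39 ± 0.12 (SE, adjusted p = 0.0106). It was lower in arterial cells at 12.3, 16.9 and 9.83 CPM, a difference of -2.74 ± 0.19 (SE, adjusted p = 2.05e-08) from sinusoidal cells.

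Between arterial and sinusoidal cells the 16 modifying genes gave 2 higher and 2 lower, near the 14.3% and 12.1% of all genes, and a median of 0.02 against 0.00 for all genes. P4ha2, a prolyl hydroxylase subunit, was higher in arterial cells at 8.17, 28.001 and 34.4 CPM against 2.35, 3.08 and 2.84 CPM, by 3.05 ± 0.31 (SE, adjusted p = 1.56e-06), and Colgalt2, which adds galactose to hydroxylysine, at 31.3, 17.96 and 12.3 CPM against 5.17, 2.94 and 2.56 CPM, by 2.43 ± 0.31 (SE, adjusted p = 3.40e-05). Fn1, fibronectin, stood at 1.36, 220.3 and 202 CPM in arterial cells, low in WT and high in FLOX and VC. The arterial values of Adipoq and S100a8 above are low in WT too, and their part in Fn1 was not tested, while Col8a1 without those barcodes is given above. Of 9 tested matrix genes that associate with fibrils, 4 were lower in LepR stromal than fibroblast-like cells and 0 higher, beside 1.96% and 3.04% of all genes. The list's median difference was -0.86 against 0.42 for all genes. The 4 were Lum, at 118, 81.9 and 142 CPM against 1448, 825 and 1399.8 CPM, with Fn1, Thbs2 and Tnxb. No tested gene of the processing list was called between these 2 stromal groups, and of the modifying list Ppib was higher and Plod2 lower in LepR stromal cells.

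The collagen receptors tested went in both directions between LepR stromal and sinusoidal cells. The fibroblast-type receptors Ddr2, Itga11 and Mrc2 stood at 318, 259 and 311 CPM, 52.3, 49.97 and 54.3 CPM and 48.3, 48.5 and 58.6 CPM in LepR stromal cells and at 1.76, 2.58 and 1.77 CPM, 0.128, 0.0992 and 0.1396 CPM and 0.102, 0.198 and 0.372 CPM in sinusoidal cells. The integrin subunits Itga1 and Itga2 were instead higher in sinusoidal than LepR stromal cells, Itga1 at 876, 725 and 865 CPM against 519.7, 412 and 341 CPM and Itga2 at 57.01, 54.9 and 52.8 CPM against 5.03, 5.98 and 7.32 CPM. Of the 7 tested receptors 5 were higher and 2 lower in LepR stromal cells, with a median of 6.82, beside 30.0% and 29.3% of all genes. The share of receptors that was lower is thus near that of all genes. Of 7 enzymes that degrade collagen 4 were higher and 2 lower, beside 30.0% and 29.3% of all genes. Mmp8, 1 of the 2 lower, is a neutrophil collagenase and stood at 3.58, 31.9 and 43.1 CPM in sinusoidal cells, where S100a8 was at 305, 2239 and 1479 CPM, and the part of neutrophil RNA in it was not tested. Mmp13, a collagenase, stood at 309, 282 and 362 CPM in LepR stromal and 0.384, 0.496 and 0.372 CPM in sinusoidal cells, while Mmp14, a membrane-bound protease, was higher in sinusoidal cells, at 170.2, 207 and 237 CPM against 148, 149 and 139 CPM. Mmp2, which degrades denatured collagen, was lower in LepR stromal than fibroblast-like cells, at 22.8, 23.8 and 34.5 CPM against 310.2, 488 and 599.9 CPM, a difference of -3.89 ± 0.32 (SE, adjusted p = 2.73e-06).

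Between genotypes no collagen gene of the LepR stromal, sinusoidal or arterial group passed the rule of size in VC. The rule asked for VC at least 1.5-fold above or below both WT and FLOX, and by more than those 2 differ, among genes with at least 50 CPM and 50 UMIs. In LepR stromal cells 0 of 14 collagen genes passed, where 0.897% of 3345 genes were higher and 0.149% lower in VC. In sinusoidal cells 0 of 3 passed (1.79% and 0.0586% of 3415 genes), and in arterial cells 0 of 5 (1.86% and 0.473% of 3593 genes). Each count of 0 is near the low share of all genes, so it does not show that collagen genes are stable between genotypes. For the 14 genes in LepR stromal cells the log2 ratio of VC to WT had a median of -0.18 and ran from -0.67 to 0.43, and that of VC to FLOX had a median of -0.26 and ran from -0.72 to 0.50. All genes had medians of -0.03 and -0.06. The neutrophil gene S100a8 also differed between libraries, at 129.5, 979 and 2769 CPM in LepR stromal cells and 305, 2239 and 1479 CPM in sinusoidal cells, and its part in these ratios was not tested.

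Below that size, VC LepR stromal cells were below both other libraries in several collagen genes, Col6a1 and Col6a2 among them, and above both in others, such as Col1a1. Col5a1, at 0.780 of WT and 0.829 of FLOX, and Col5a2, at 0.881 and 0.851, were also below both. Col1a2, at 1.07 and 1.06, and Col8a1, at 1.35 and 1.02, were also above both. The VC ratio of Col6a1 was 0.841 (95% interval 0.795 to 0.891) to WT and 0.794 (95% interval 0.763 to 0.825) to FLOX, and that of Col6a2 0.779 (95% interval 0.719 to 0.845) and 0.766 (95% interval 0.724 to 0.811). These intervals cover counting error only, and the spread between mice is unknown. Col1a1 was at 1.27 (95% interval 1.16 to 1.396) of WT and 1.41 (95% interval 1.33 to 1.502) of FLOX. Leaving out of each library the LepR stromal cell with the most collagen UMIs, in VC the cell with Bglap, these became 1.15 and 1.22. Col12a1 was lowest in VC, at 0.6302 (95% interval 0.563 to 0.706) of WT and 0.833 (95% interval 0.764 to 0.907) of FLOX. Larger ratios separated WT from both floxed libraries or FLOX from the others: Col6a5 was at 0.267 (95% interval 0.198 to 0.359) of WT in FLOX and 0.353 (95% interval 0.254 to 0.489) in VC, and Col5a3 in VC at 0.609 (95% interval 0.554 to 0.668) of FLOX and 0.887 (95% interval 0.769 to 1.03) of WT. Col3a1 in WT exceeded both, VC being at 0.719 (95% interval 0.6496 to 0.796) of it. The richest 10% of LepR stromal cells held 100% of the Col6a5 UMIs in each library, and a single WT cell held 26. Col6a5 ratios without that cell were not taken.

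**Figure D5:**
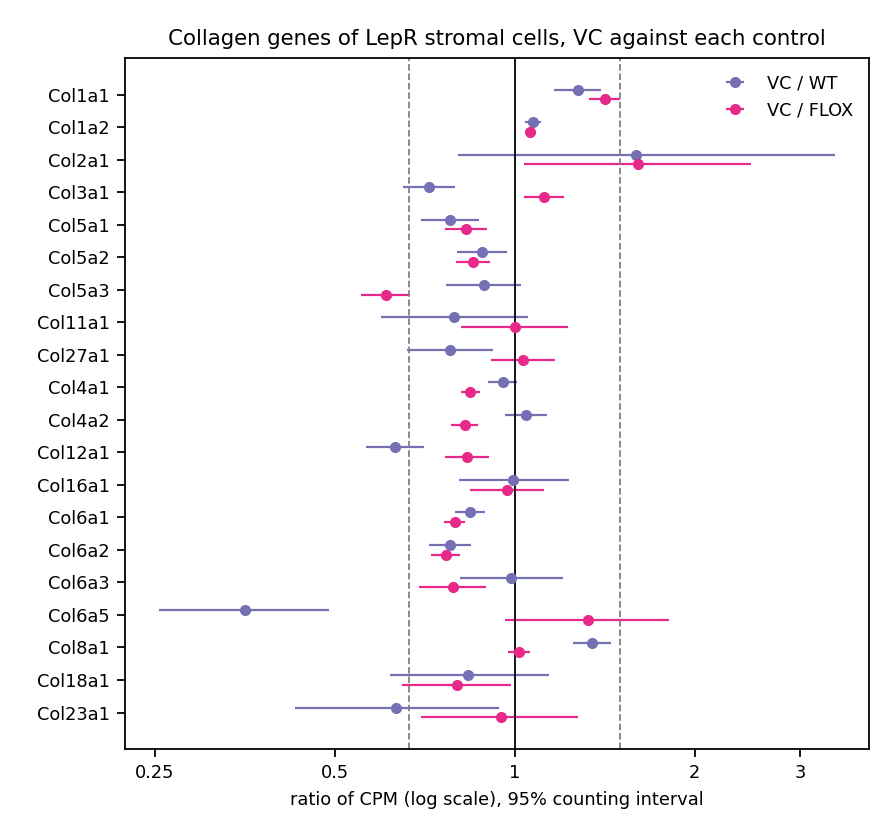
Ratio of CPM in VC to WT (purple) and to FLOX (pink) for collagen genes in LepR stromal cells, log axis, bars 95% counting intervals, dashed lines at a 1.5-fold difference in either direction. No gene with at least 50 CPM lies beyond a dashed line on the same side in both ratios.

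Among the 3 sinusoidal collagen genes with at least 50 CPM, the VC level stood at 1.004 (95% interval 0.981 to 1.03) of WT and 1.08 (95% interval 1.05 to 1.105) of FLOX in Col4a1 and at 1.01 (95% interval 0.975 to 1.04) and 1.004 (95% interval 0.9697 to 1.04) in Col6a3. Among genes far below that level, VC exceeded both other libraries in Col1a2, at 1.79 (95% interval 1.38 to 2.33) of WT and 2.001 (95% interval 1.498 to 2.68) of FLOX, and in Col1a1, at 2.08 (95% interval 1.29 to 3.37) and 2.56 (95% interval 1.48 to 4.52), with levels of 3.07, 2.74 and 5.49 CPM and 0.895, 0.728 and 1.86 CPM. For Col1a2 the B lineage gauge of free RNA held 4, 11 and 3 UMIs among 2642577, 4206529 and 2330497 UMIs. The part of free RNA in these low sinusoidal levels was not tested. Col14a1 was higher in both floxed libraries than in WT, at 1.18, 5.46 and 5.26 CPM. Col15a1 went the other way, with 9.36, 5.99 and 5.21 CPM.

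With WT as the odd library, 3 of the 5 arterial collagen genes passed the rule, Col15a1 higher and Col18a1 and Col8a1 lower, where 6.01% of genes were higher and 6.43% lower in WT. Arterial Col4a1 in VC was at 0.643 (95% interval 0.598 to 0.692) of WT and 0.892 (95% interval 0.837 to 0.9504) of FLOX. The WT arterial cells lack Gja5 and Bmx UMIs as described above, and the part of this in the collagen ratios was not tested.

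In fibroblast-like cells 4 of 13 collagen genes passed with VC as the odd library, where 10.7% of 535 genes were higher and 6.92% lower. Col6a3 at 414, 326 and 716 CPM and Col6a2 at 310.2, 326 and 863 CPM were highest in VC. Col8a1 at 1603, 759.7 and 347 CPM and Col14a1 at 517, 532 and 0 CPM were lowest, the 0 UMIs of Col14a1 in VC being at least 16.8-fold below FLOX. With WT as the odd library Col6a1, Col4a1, Col12a1 and Col1a1 passed as lower, where 24.7% of genes did, and with FLOX Col4a2 as higher, where 8.41% did. These values rest on 2, 8 and 6 cells, and counts among 13 genes are too few to set the collagen genes apart from all genes. Leaving out the deepest 5% of barcodes removed the deepest cell of each library here. Col14a1 alone was then past the rule with VC as the odd library. The only WT cell left held all 10 WT UMIs of Col14a1, so this does not show that the difference is stable.

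By Pearson correlation of log2(CPM + 1) over the 12 sums of cell group and library, the 5 genes most like Col1a1 among 5077 compared outside the family were Lum, Mpp6, Fzd2, Gxylt2 and Clec11a, at 0.99 each. The 5 most like Col4a1 were Ier5l at 0.97 and Ptprm, Eogt, Trim47 and Itpripl2 at 0.94 to 0.95. For Col15a1 they were Arl6ip5 at 0.96 and Cav1, Fbln2, Ly6c1 and Epha4 at 0.91 to 0.94, Fbln2 being a gene of the arterial rule. The sums share libraries and cells within a library, and these values describe likeness over 4 cell groups.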

How the data were processed

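The deposited values are raw counts of UMIs per gene and cell barcode from 3′-end libraries (Chromium v3.1), 1 matrix per library, made by the authors with Cell Ranger 2.1.1 and mm10 per the submitters' processing notes, which also name Seurat 3.1, while the matrix header gives software version 3.1.0. Whether counting used strand does not appear in the sources used here. The members, lists, cell group rules and alternatives were chosen with earlier results of these data known.

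Cells with at least 500 genes and at most 10% mitochondrial UMIs were assigned by marker UMIs and no doublet caller was run. UMIs were summed per library and group. edgeR 4.0.16 (R 4.3.3) fitted all 12 sums with group and library as terms after TMM scaling and its default filter on low counts, by the quasi-likelihood test with Benjamini-Hochberg adjustment and a threshold of 0.05. The library pairs the groups because they were captured together. The script was tested on simulated data. DESeq2 1.42.0, other filters and gates, and leaving out a library were alternatives, and the endothelial groups without barcodes holding Adipoq or S100a8 RNA were chosen after seeing the data.

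Intervals are exact at 95% (Poisson for levels, binomial for ratios and Clopper-Pearson for shares) and cover counting error only. A count of 0 was bounded at 3 UMIs. Sums held 19342 to 39099077 UMIs. Shares of cells were also taken after thinning to 2000 UMIs (Python 3.11.15). Genes were described singly where their mean reached 10 CPM in at least 1 group or where they passed the rule of size, with a few others named after their values were seen. Positions are from GENCODE vM21 on GRCm38, and upstream windows, found for 35 of the 44 genes, from RefSeq GRCm38.p6.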

Additional observations from a re-analysis of the deposited data

Results flagged for a closer look

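Col5a3, which encodes a chain of type V collagen, was also found in B lineage cells, a group used only as a gauge of free RNA. It stood at 23.8 CPM in WT, 5.23 CPM in FLOX and 14.6 CPM in VC, on 63, 22 and 34 UMIs in 28 of 297, 12 of 303 and 12 of 147 cells. Sinusoidal cells held 0.153, 0.496 and 0.326 CPM of it. None of the B lineage cells with Col5a3 held a UMI of Col1a2, the leading collagen gene of LepR stromal cells. The group as a whole held only 4, 11 and 3 UMIs of Col1a2, too few for this absence to be informative. The source of the Col5a3 UMIs was not tested.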

How the results depend on the processing

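Counts of collagen genes called between cell groups moved most with the fibroblast-like group of 16 cells. LepR stromal against fibroblast-like cells gave 9 calls, 16 with no filter on low counts and 1 with the stricter fibroblast-like rule, which turned Col5a2 to 2.40 and Col1a1 to 2.44. Fibroblast-like against sinusoidal cells gave 18 calls and 2 with that rule. That rule lowered the mean fibroblast-like collagen share from 1.81% to 0.415%, and a Cxcl12 limit of 100 to 1.45%. The sinusoidal share was 0.112% with each cell weighted alike, against 0.115%. Without barcodes holding Adipoq or S100a8 RNA, arterial against sinusoidal cells gave 10 calls in place of 15, and Col12a1 and Col1a1 turned to -0.13 and -0.36. Without the replicate block the 4 comparisons gave 8, 20, 19 and 15 calls. Leaving out 1 library gave 6 to 12 calls for LepR stromal against fibroblast-like, 19 to 23 against sinusoidal, 15 to 19 for fibroblast-like against sinusoidal and 13 to 17 for arterial against sinusoidal cells, and mean shares of 0.523% to 0.539%, 1.67% to 1.97%, 0.114% to 0.116% and 0.264% to 0.309% for LepR stromal, fibroblast-like, sinusoidal and arterial cells. The 4 fibroblast-like genes past the rule of size in VC became 1 with at least 1000 genes and at most 5% mitochondrial UMIs. They became 7 with a Cxcl12 limit of 100, 2 with cells weighted alike and 2 with median-of-ratios scaling. Without the 5% deepest barcodes, here the deepest cell of each library, 1 was left. The causes were not tested. Of the named genes' called contrasts that an alternative also tested, 843 kept direction and side of the threshold, 51 kept direction and lost the call, and 4 reversed. In 18 others the gene was no longer tested, and in 63 a cell group had no UMI of it, so that no fold was given. Leaving out a library was not run for the rule of size, which needs all 3, and in the fibroblast-like group neither the stricter rule nor a Cxcl12 limit of 25 was, since each leaves no WT cell. A gene with 0 UMIs in the WT fibroblast-like cells may stand at up to 155 CPM.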

Other observations

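Barcodes outside the 4 groups, B lineage cells among them, numbered 1000 (WT), 1207 (FLOX) and 520 (VC) and held collagen at 0.0289%, 0.05999% and 0.0312% of their UMIs. Col2a1, the main collagen of cartilage, had 36 UMIs among them in WT, 5 in FLOX and 2 in VC.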
